A study of Mus musculus with 9 samples.

Results

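The 7 genes described here encode receptors for extracellular ATP and ADP: the ATP-gated channel subunits P2rx2, P2rx3, P2rx4, P2rx5, P2rx6 and P2rx7, and the G-protein-coupled ADP receptor P2ry1. They are 7 of the 26683 genes in the count table and were taken by symbol. The family was selected on earlier results of these same 9 libraries, in which P2rx2 was among the larger decreases, so the P2rx2 difference from Normoxic is given as a description with no p-value. All 7 passed the filter on low counts.

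P2X subunits assemble as trimers into cation channels that ATP opens directly. P2X2 and P2X3 are best known from neurons and can form a joint channel, P2X4 and P2X7 are prominent in microglia and macrophages, and P2X7 opens only at high ATP and is a trigger of the NLRP3 inflammasome. P2Y1 couples through Gq to phospholipase C and calcium release. In the retina ATP is released by neurons and by Müller glia, and P2X2 has been described in cholinergic (starburst) amacrine cells.

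Bulk RNA was sequenced from mouse retinas in 3 groups of 3 libraries, all collected at postnatal day 17. Normoxic mice stayed in room air, and the labels do not say whether they were injected. PBS and Gel mice both had oxygen-induced retinopathy (OIR), in which high oxygen stalls vessel growth in the pup and abnormal vessels form once it breathes room air again. At postnatal day 15 PBS mice received phosphate-buffered saline into the vitreous, and Gel mice the hydrogel that the labels call PCC1/PHCF-Gel, which carries procyanidin C1 (PCC1), a plant polyphenol. No group received a hydrogel without PCC1, so drug and carrier cannot be told apart. Strain, sex and whether replicates are different animals are not given in the labels, so p-values measure only the spread between these samples.

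Total counts ran from 29324142 to 35663470 per library, and 1 CPM (counts scaled to a total of 1e+06 per library) stood for 29.3 to 35.7 counts. The 7 receptors were therefore measured on 11 to 501 counts per library. Rod photoreceptor markers, which define retina, summed to 47150 to 66940 CPM, with none at 0. PBS replicate 3 lay farthest from Normoxic on the first principal component (38.2% of the variance, position 57.8 against -43.7 to -35.9) and its counts fell with gene length relative to the other PBS libraries (Spearman correlation -0.49 across genes). In the edgeR quasi-likelihood test with Benjamini-Hochberg adjustment, a gene was called where the adjusted p was under 0.05. By that test 748 genes were higher and 353 lower in PBS than in Normoxic, and 195 were higher and 50 lower in Gel than in Normoxic. Between Gel and PBS 0 genes were called, 961 had an unadjusted p under 0.05, and DESeq2 called 64.

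Of the 7 receptors, 1 was called in PBS versus Normoxic (P2rx2, lower), against 6.34% of all genes tested. In 3 receptors (P2rx2, P2rx5, P2rx7) the CPM of the PBS and Normoxic libraries did not overlap, against 29.0% of all genes. Between Gel and PBS 0 of 7 were called by edgeR or by DESeq2, against 0% of all genes by edgeR, 1 (P2rx2) had an unadjusted edgeR p under 0.05, and 2 (P2rx4, P2rx7) did not overlap, against 7.89%. In Gel versus Normoxic 1 was called (P2rx2, lower), against 1.41%, and 2 (P2rx2, P2rx5) did not overlap, against 23.9%. The median log2 fold change of the 7 was -0.32 for PBS over Normoxic, -0.10 for Gel over PBS and -0.33 for Gel over Normoxic, beside 0.01, -0.01 and 0.00 over all genes tested. PBS versus Normoxic and Gel versus Normoxic share the Normoxic libraries, and nothing is read from these counts because the family was chosen with the values known.

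**Figure D1:**
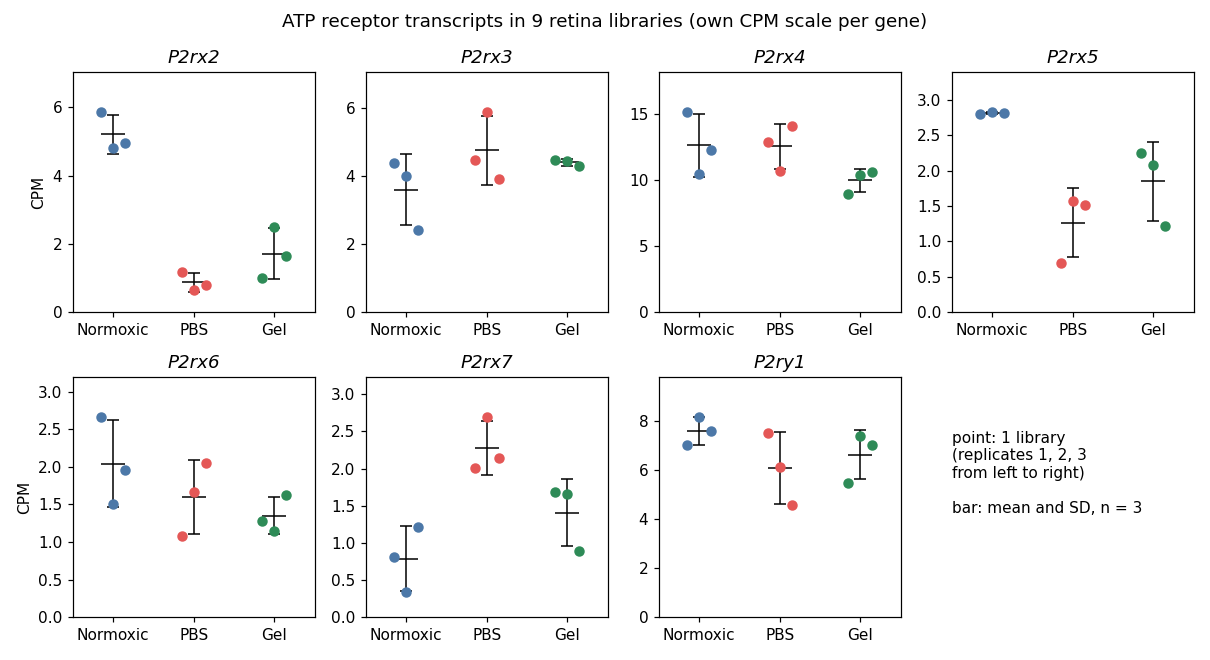
Level of each receptor transcript in CPM (vertical axis, separate scale per gene, starting at 0) in the Normoxic, PBS and Gel libraries; points are libraries and bars are the mean and SD of 3. P2rx2 lies at 4.80 to 5.87 CPM in Normoxic and at 2.50 CPM or less in every PBS and Gel library, while P2rx7 lies at 2.01 CPM or more in PBS and at 1.21 CPM or less in Normoxic.

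P2rx2 (Entrez 231602), the subunit of slowly desensitizing neuronal ATP channels, stood apart from the rest of the family. It was at 5.87, 4.80 and 4.96 CPM in Normoxic replicates 1 to 3 (172, 156 and 152 counts), at 1.18, 0.65 and 0.79 CPM in PBS (37, 19 and 28 counts), and at 1.01, 2.50 and 1.63 CPM in Gel (30, 89 and 55 counts). Every OIR library was below every Normoxic library, and the Gel and PBS ranges overlapped. The log2 fold change was -2.56 ± 0.352 (SE) in PBS versus Normoxic, a level 5.90-fold lower, and -1.58 ± 0.331 in Gel versus Normoxic, a level 2.99-fold lower. Over 18 alternative settings the PBS value ran from -2.83 to -2.38, and the Gel value from -1.98 to -1.31. These differences entered the choice of the family, so a call on them is no support, and the call in Gel versus Normoxic counted above ended with the replicate number as a block and without any 1 of Normoxic 1, Normoxic 2, Normoxic 3, PBS 2, Gel 1 or Gel 3. Gel versus PBS was 0.98 ± 0.356 (edgeR adjusted p = 0.776), not past the threshold, and 0 of 18 alternatives called it (range 0.59 to 1.25). Gel 2 was the highest of the injected libraries and Gel 1 lay inside the PBS range.

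Markers of the neurons that could carry P2rx2 were also read in these libraries. Of 7 starburst amacrine markers 0 were called in PBS versus Normoxic (3 had an unadjusted p under 0.05, as had 21.4% of all genes). Their median log2 difference was -0.26, and their summed level was 150 to 156 CPM in Normoxic, 121 to 145 in PBS and 134 to 145 in Gel. Chat, the acetylcholine-synthesizing enzyme that defines these cells, was at 22.7 to 23.5 CPM in Normoxic, 17.1 to 20.2 in PBS and 19.6 to 21.3 in Gel. It was not called in PBS versus Normoxic (edgeR adjusted p = 0.169). Chat was among 3 of 7 starburst markers in which PBS and Normoxic did not overlap, as in 29.0% of all genes. Of 8 pan-amacrine markers 4 were lower in PBS (6.34% of all genes were called), among them Slc6a9, Gad1 and Tfap2c, the last losing its call in 6 of 18 alternatives, and the sum was 2194 to 2242 CPM in Normoxic, 1401 to 1722 in PBS and 1687 to 1806 in Gel. Of 10 ganglion cell markers 2 were lower, Nefm and Nefh, whose calls ended in 1 and 8 of 18 alternatives (edgeR adjusted p up to 0.0539 and 0.168), with sums of 2057 to 2255, 1532 to 1942 and 1499 to 1905 CPM. Lower marker levels were also seen outside these lists. Among 8 bipolar cell markers 1 was lower in PBS (Grik1, held in all 18 alternatives), and the median log2 difference was -0.30. Their sums were 1559 to 1602 CPM in Normoxic, 1076 to 1357 in PBS and 1240 to 1362 in Gel. Among 4 horizontal cell markers 1 was lower (Lhx1, ended in 4 of 18), and the PBS and Normoxic sums overlapped. Among 8 rod markers 0 were called. No marker of any of these lists was at 0. The part of these cell types in the P2rx2 difference was not tested, and in bulk RNA fewer cells of a type and less RNA per cell cannot be told apart.

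P2rx3 (Entrez 228139), the partner of P2X2 in the joint channel and best known from sensory neurons, did not share that pattern of levels. Its values were 4.40, 4.00 and 2.42 CPM in the Normoxic libraries, 4.49, 5.90 and 3.91 with PBS, and 4.48, 4.46 and 4.30 with Gel. The groups overlapped in every comparison. Log2 fold changes were 0.41 ± 0.238 in PBS versus Normoxic and -0.10 ± 0.235 in Gel versus PBS (edgeR adjusted p = 0.351 and 0.987). The ratio of P2rx2 to P2rx3 in FPKM, a level per transcript length, was 3.94, 3.54 and 6.07 in the Normoxic libraries, 0.775, 0.324 and 0.595 with PBS, and 0.666, 1.65 and 1.12 with Gel. P2rx2 thus exceeded P2rx3 in all Normoxic libraries and was below it in all PBS libraries. The Gel libraries depend on the length used: the deposited FPKM imply 6806 bases for P2rx3, while its exons in the GENCODE M21 annotation cover 2789. With GENCODE lengths, a choice made after seeing the data, the ratio was 1.30 to 2.23 in Normoxic, 0.119 to 0.284 in PBS and 0.244 to 0.607 in Gel, below 1 in all 3 Gel libraries. P2rx3 shares 51 of 2789 exon bases (1.83%) with Ssrp1 on the opposite strand in that annotation, and Ssrp1 was at 115 to 136 CPM. The sources used here do not say whether reads were counted by strand, so part of the P2rx3 count cannot be told apart from Ssrp1.

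P2rx7 and P2rx4 are the members best known from microglia and lie close together on chromosome 5. Their promoters are shown side by side because PBS and Normoxic did not overlap for P2rx7 and did for P2rx4. Neither difference was called by edgeR. Each is 300 bases of RefSeq sequence in build GRCm38.p6, 250 before to 50 after an annotated start, on the plus strand, with any match on either strand to GAGGAA, the core motif of the macrophage transcription factor PU.1, in capitals. The libraries were processed on GRCm39, so these positions belong to the sequence table only.
P2rx7, chr5:122643677-122643976: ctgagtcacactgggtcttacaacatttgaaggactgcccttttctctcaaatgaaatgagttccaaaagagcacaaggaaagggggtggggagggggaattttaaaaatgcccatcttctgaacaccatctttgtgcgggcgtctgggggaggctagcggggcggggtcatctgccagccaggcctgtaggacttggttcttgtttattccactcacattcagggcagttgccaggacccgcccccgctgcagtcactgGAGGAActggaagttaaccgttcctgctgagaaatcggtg
P2rx4, chr5:122707294-122707593: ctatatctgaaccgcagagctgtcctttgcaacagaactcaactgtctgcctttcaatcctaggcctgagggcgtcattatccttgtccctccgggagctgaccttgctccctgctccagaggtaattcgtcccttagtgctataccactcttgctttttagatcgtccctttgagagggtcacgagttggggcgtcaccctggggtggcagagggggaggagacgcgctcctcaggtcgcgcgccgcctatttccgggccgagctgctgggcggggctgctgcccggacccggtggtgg
The P2rx7 window holds 1 match, and so do the window of a further P2rx7 start and that of P2rx6. P2rx4 and P2ry1 hold 0. Over all 32851 promoter windows of the table, 28.3% hold the motif. The string ACGTG, a form of the hypoxia response element core, was in 0 of these windows, against 19.6% of all. Other forms of that core, such as GCGTG, were not searched. A match is a string of letters and not a bound site. P2rx6, whose window holds 1 match, overlapped between groups in every comparison. Whether the motif has a part in the receptor levels was not tested. P2rx2, P2rx3 and P2rx5 complete the family, of which 4 of 7 members were matched in the table.

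P2rx7 (Entrez 18439), the low-affinity channel upstream of the inflammasome, was at 0.82, 0.34 and 1.21 CPM in the Normoxic libraries (24, 11 and 37 counts), 2.01, 2.69 and 2.14 CPM with PBS (63, 79 and 76 counts), and 1.68, 1.65 and 0.89 CPM with Gel (50, 59 and 30 counts). All PBS libraries were above all Normoxic and all Gel libraries, and the Gel and Normoxic ranges overlapped. The difference was 1.54 ± 0.428 in PBS versus Normoxic (edgeR adjusted p = 0.0594), which did not pass the threshold. It was called under 4 of 18 alternatives: DESeq2, limma-voom, no filter on low counts, and removal of the length trend. Gel versus PBS was -0.69 ± 0.408 and Gel versus Normoxic 0.85 ± 0.432 (edgeR adjusted p = 0.987 and 0.443). Microglia and macrophage markers moved in the same libraries: 10 of 12 were higher in PBS and 6 of 12 in Gel than in Normoxic, against 6.34% and 1.41% of all genes called. In PBS some of these calls ended when 1 Normoxic library was left out, among them that of Itgam (2 of 18 alternatives). In Gel Csf1r kept its call in all 18, while those of Cx3cr1, C1qa, C1qb, C1qc and Trem2 ended in 5, 3, 5, 4 and 5, each when 1 Normoxic or Gel library was left out. The summed level of the 12 was 72.7 to 82.8 CPM in Normoxic, 192 to 290 in PBS and 138 to 188 in Gel, with none at 0. Their part in the P2rx7 values was not tested.

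P2rx4 (Entrez 18438), a high-affinity channel of microglia, neurons and endothelium, drew the most counts of the 7. It was at 15.2, 10.5 and 12.3 CPM in the Normoxic libraries, 12.9, 10.7 and 14.1 with PBS, and 8.99, 10.4 and 10.6 with Gel. The PBS range lay inside the Normoxic range, and the 3 Gel libraries lay just below the 3 PBS libraries, Gel 3 at 10.6 beside PBS 2 at 10.7. Log2 fold changes were 0.01 ± 0.172 in PBS versus Normoxic and -0.33 ± 0.173 in Gel versus PBS (edgeR adjusted p = 0.980 and 0.973). Of the microglia markers given above, 10 of 12 were higher in PBS. Their part in the P2rx4 values was not tested. The FPKM ratio of P2rx4 to P2rx7 was 24.0 to 73.0 in Normoxic, 9.39 to 15.6 in PBS and 12.6 to 28.2 in Gel, and with GENCODE lengths 8.64 to 26.3, 3.38 to 5.60 and 4.54 to 10.1.

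P2rx5 (Entrez 94045) encodes a channel subunit with small currents of its own. It was at 2.80, 2.83 and 2.81 CPM in the Normoxic libraries, 0.70, 1.57 and 1.52 with PBS, and 2.26, 2.07 and 1.22 with Gel. The Normoxic libraries lay above every PBS and Gel library. The difference was -1.14 ± 0.345 in PBS versus Normoxic (edgeR adjusted p = 0.0808), not past the threshold, and of 18 alternatives 1 called it, DESeq2 (adjusted p = 0.0137). Gel versus Normoxic was -0.59 ± 0.337 and Gel versus PBS 0.55 ± 0.348 (edgeR adjusted p = 0.504 and 0.987).

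P2rx6 (Entrez 18440), a subunit that works mainly in mixed channels with other P2X proteins, was at 2.66, 1.51 and 1.96 CPM in the Normoxic libraries, 1.08, 1.67 and 2.05 with PBS, and 1.28, 1.15 and 1.63 with Gel. The groups overlapped in all 3 comparisons, with log2 fold changes of -0.33 ± 0.325 for PBS over Normoxic, -0.25 ± 0.330 for Gel over PBS and -0.58 ± 0.328 for Gel over Normoxic (edgeR adjusted p = 0.584, 0.987 and 0.502). In GENCODE M21 P2rx6 shares 554 of 3995 exon bases (13.9%) with Slc7a4 on the opposite strand. Slc7a4 was at 22.3 to 31.4 CPM, above P2rx6 in every library, so the P2rx6 level is uncertain.

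P2ry1 (Entrez 18441), the ADP receptor, was at 7.02, 8.15 and 7.58 CPM in the Normoxic libraries, 7.52, 6.13 and 4.59 with PBS, and 5.49, 7.37 and 7.03 with Gel. The ranges overlapped in all 3 comparisons, and PBS 3 was the lowest library. Log2 fold changes were -0.32 ± 0.198 in PBS versus Normoxic and 0.13 ± 0.198 in Gel versus PBS (edgeR adjusted p = 0.383 and 0.987). Of 8 Müller glia markers, a cell type known to carry P2Y1, 1 was higher (Vim) and 2 lower (Aqp4 and Kcnj10) in PBS. By the same test 6.34% of all genes were called. The Kcnj10 call ended in 12 of 18 alternatives (edgeR adjusted p up to 0.198). The list had summed levels of 4560 to 5058 CPM in Normoxic, 4137 to 5308 in PBS and 4126 to 5424 in Gel.

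**Figure D2:**
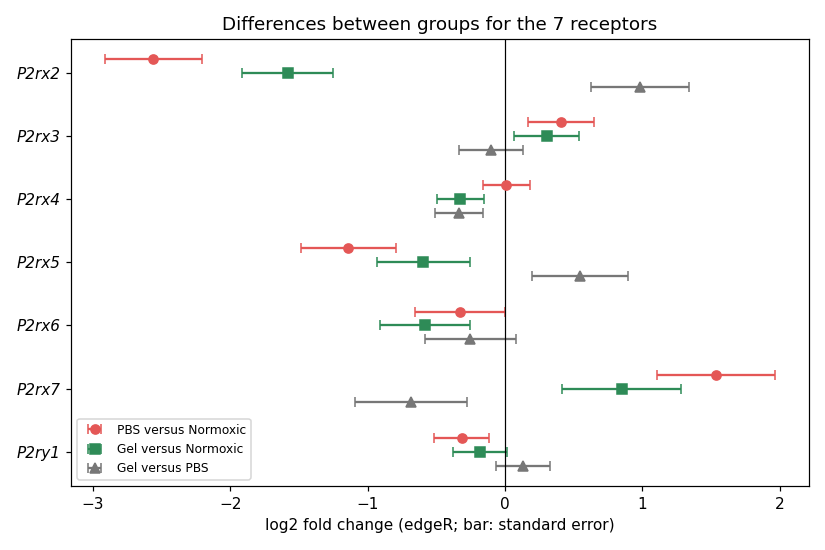
Log2 fold change (horizontal axis) of each receptor in the 3 comparisons, with the standard error from edgeR as bars. P2rx2 lies farthest from 0, at -2.56 in PBS and -1.58 in Gel versus Normoxic, and P2rx7 is the member farthest above 0, at 1.54 in PBS versus Normoxic.

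By the deposited FPKM the order of the receptors differed between groups. In Normoxic P2rx4 led at 4.63 ± 0.871 FPKM (SD, n = 3), followed by P2rx2 at 2.26 ± 0.249 and P2ry1 at 1.95 ± 0.145, whose ranges overlapped. P2rx5 (0.909), P2rx6 (0.871) and P2rx3 (0.530) followed with overlapping neighbours, and P2rx7 was lowest at 0.122. In PBS P2rx4 (4.61) and P2ry1 (1.56) stood above the rest, and P2rx3, P2rx6, P2rx5, P2rx2 and P2rx7 followed from 0.700 down to 0.353 FPKM, each overlapping its neighbour. In Gel P2rx2 came after P2rx4 and P2ry1, at 0.743 FPKM, with a range overlapping that of P2rx3 at 0.648. By library P2rx2 held rank 2, 3 and 2 in the Normoxic libraries, 4, 7 and 6 with PBS, and 6, 3 and 3 with Gel, so Gel 1 lay apart from the other Gel libraries.

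Most of this order rests on the gene lengths behind the FPKM, which differ from the exon bases of GENCODE M21: 2729 against 7025 for P2rx4, 2346 against 3995 for P2rx6 and 6806 against 2789 for P2rx3, and 2304 against 2574 for P2rx2. With GENCODE lengths 2 of 7 receptors kept their Normoxic rank, P2ry1 and P2rx7. P2rx2 then led in Normoxic at 2.02 ± 0.223 CPM per kilobase, overlapping P2rx4 at 1.80 ± 0.339, and was last in PBS at 0.339 ± 0.107 and rank 5 in Gel at 0.665 ± 0.290. P2rx3 stood above P2rx6 in Normoxic, at 1.29 against 0.511. Differences of 1 gene between groups do not depend on the length.

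As a share of the summed FPKM of the 6 P2X genes, P2rx2 made up 24.4 ± 1.20% in Normoxic, 5.33 ± 1.81% in PBS and 11.3 ± 4.10% in Gel (SD, n = 3). P2rx4 made up 49.5% in Normoxic, 64.5% in PBS and 56.8% in Gel, although its own level did not pass the test. P2rx7 made up 1.30%, 5.00% and 3.41%. The summed P2X level was 8.11 to 10.9 FPKM in Normoxic, 6.70 to 7.78 in PBS and 5.93 to 6.96 in Gel. With GENCODE lengths P2rx2 made up 29.3%, 6.68% and 13.1%, and P2rx4 25.9%, 34.9% and 28.4%. P2rx3 then made up 18.55%, 33.14% and 31.65%, above P2rx4 in Gel. Shares within a sum are not independent, and a lower P2rx2 raises the share of every other subunit.

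**Figure D3:**
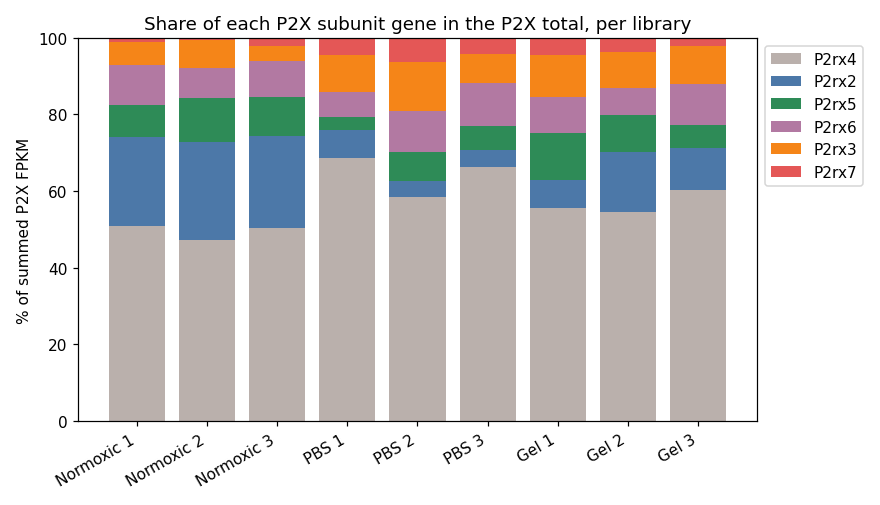
Share of each P2X gene in the summed P2X FPKM (vertical axis, percent) for each of the 9 libraries. The P2rx2 segment is 23.3 to 25.7% in the Normoxic libraries, 4.19 to 7.42% in PBS and 7.40 to 15.6% in Gel. By these FPKM P2rx4 is the largest segment in every library. With GENCODE lengths its mean share is below that of P2rx2 in Normoxic and that of P2rx3 in Gel.

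The genes whose log2 CPM followed P2rx2 most closely over the 9 libraries were Rprm (Pearson r = 0.967), Gabrr3 (0.944), Chrm2 (0.943), Apbb1 (0.939), Elavl4 (0.938), Pcdhb11 (0.937) and Dffa (0.937), out of 13503 genes averaging 1 CPM or more. Chrm2, a muscarinic acetylcholine receptor, was at 9.74 ± 0.773 CPM in Normoxic, 4.99 ± 0.768 in PBS and 5.99 ± 1.30 in Gel. Rprm, a cell cycle inhibitor, was at 20.0 ± 0.639, 11.8 ± 0.606 and 13.5 ± 1.85 CPM. Their differences from Normoxic were smaller than that of P2rx2, at -0.96 and -0.76 in PBS on the log2 scale. The points share their groups and library depth. Once group means were removed r was 0.582 to 0.819 for these 7 genes. Of the 8 genes closest to P2rx2, 1 stayed among the top 8 by Spearman correlation and 0 by deviations from group means.

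**Figure D4:**
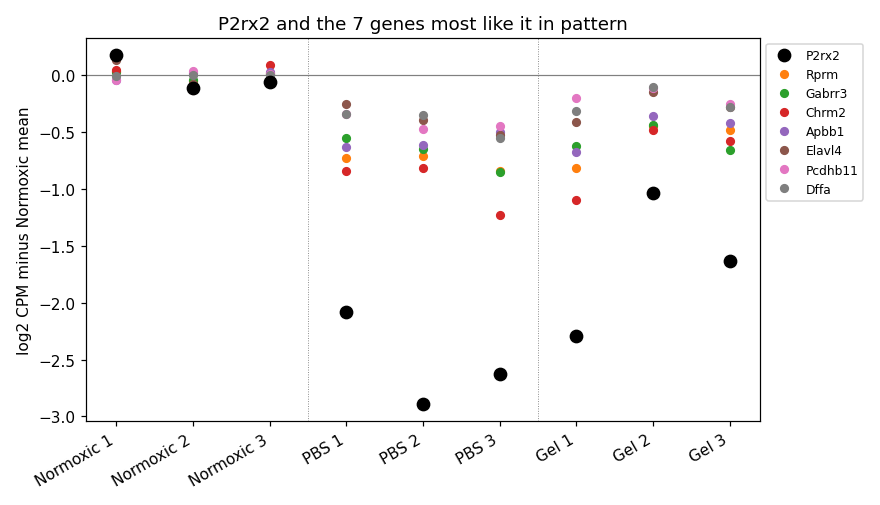
Log2 CPM minus the Normoxic mean (vertical axis) in each library for P2rx2 (black) and the 7 genes of highest correlation with it (colours). All 8 genes lie below 0 in the 6 OIR libraries, and P2rx2 lies farthest below in each.

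For P2rx7 the closest gene was Spi1, the gene of PU.1, a transcription factor of macrophages and microglia (r = 0.948, and 0.945 with group means removed), at 0.591 ± 0.259 CPM in Normoxic, 2.55 ± 0.306 in PBS and 1.57 ± 0.262 in Gel. Pold3 and Clptm1l followed. A part of PU.1 in the P2rx7 values was not tested. The closest gene was Socs2 for P2rx3 (0.976), Caap1 for P2rx4 (0.944), Stk32b for P2rx5 (0.944), Cdh8 for P2rx6 (0.963) and Pcx for P2ry1 (0.939). Among the receptors themselves r was -0.772 for P2rx2 with P2rx7, 0.698 for P2rx2 with P2ry1 and 0.655 for P2rx2 with P2rx5.

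Beyond the 7 receptors, 8 lists of genes that make, sense or clear extracellular nucleotides, or act beside them, held 57 genes that passed the filter. Of the 57, 6 were called in PBS versus Normoxic, 1 in Gel versus Normoxic and 0 between Gel and PBS (DESeq2 called 1), beside the shares of all genes given above. Of the other P2 receptors 1 of 5 was higher in PBS: P2ry6, a UDP receptor of microglia, at 0.102, 0.400 and 0.719 CPM in the Normoxic libraries, 1.43, 1.74 and 2.53 with PBS, and 1.55, 1.49 and 1.99 with Gel. Its log2 fold change was 2.22 ± 0.508 (edgeR adjusted p = 0.0263), and the call ended in 4 of 18 alternatives: a fit of the 2 groups alone, and without Normoxic 1, Normoxic 2 or PBS 3 (adjusted p up to 0.107). P2rx1, the remaining P2X gene, did not pass the filter, with 1, 0 and 4 counts in the Normoxic libraries, 10, 13 and 10 with PBS, and 5, 4 and 0 with Gel. P2ry12, the ADP receptor of resting microglia, was not called.

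Of 5 genes of the inflammasome list that passed the filter, 1 (Txnip) was called higher and 0 lower in PBS, against 6.34% of all genes called. An unadjusted p under 0.05 was found in 4 of the 5, and in 21.4% of all genes. Pycard, Gsdmd and Nek7 were at 1.86, 0.84 and 0.235 on the log2 scale and Il18 at -0.09, none of them called. Whether the levels of these genes follow from any of the receptors was not tested. Txnip, a thioredoxin-binding protein that also responds to glucose, was at 13.3, 16.3 and 12.4 CPM in the Normoxic libraries, 35.9, 51.1 and 74.3 with PBS, and 55.5, 52.2 and 62.4 with Gel. Its log2 fold change was 1.96 ± 0.239 in PBS and 2.03 ± 0.239 in Gel versus Normoxic (edgeR adjusted p = 0.00117 and 0.00305), and both calls held in all 18 alternatives. Nlrp3, Casp1, Casp4 and Il1b did not pass the filter. Of 9 Gq signalling genes 1 was lower in PBS: Plcb1, a phospholipase C, at 29.1, 24.6 and 25.2 CPM in the Normoxic libraries, 12.6, 16.6 and 12.9 with PBS, and 19.9, 20.3 and 26.6 with Gel. Its log2 fold change was -0.90 ± 0.147 in PBS versus Normoxic (edgeR adjusted p = 0.00537), held in all 18 alternatives. In Gel versus PBS it was 0.66 ± 0.147 (edgeR adjusted p = 0.451), not past the threshold although the Gel and PBS libraries did not overlap.

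Among 14 other transmitter-gated channels of amacrine and ganglion cells, 3 were called lower and 0 called higher in PBS than in Normoxic. By the same test 6.34% of all genes were called. The 3 called channels were all nicotinic acetylcholine receptor subunits, and the list was chosen with earlier results of these data known. Log2 fold changes were -0.60 ± 0.130 for Chrnb3, -0.71 ± 0.167 for Chrna7 and -0.50 ± 0.127 for Chrna4 (edgeR adjusted p = 0.0203, 0.0304 and 0.0408). The calls ended in 4, 5 and 10 of 18 alternatives, with adjusted p up to 0.0900, 0.130 and 0.178. Without a call, the glycine receptor subunits Glra1, Glra2, Glra3 and Glra4 were at -0.80, -0.57, -0.59 and -0.61 (edgeR adjusted p = 0.0739 to 0.142). Chrnb4 and Chrna3, also nicotinic, were at 0.68 and 0.25, and Htr3a at 0.20. In PBS versus Normoxic 10 of 14 had an unadjusted p under 0.05, as had 21.4% of all genes. The median over the 14 was -0.48, and edgeR called 0 of 14 in either comparison with Gel (unadjusted p under 0.05 in 4 against PBS and 2 against Normoxic, beside 5.54% and 13.2% of all genes).

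The lists for handling of ATP and adenosine had 0 genes called by edgeR in any of the 3 comparisons: 9 nucleotide breakdown enzymes, 6 genes of ATP release, 6 of adenosine uptake and salvage, and 3 adenosine receptors. At an unadjusted p under 0.05 they held 2, 1, 3 and 1 genes in PBS versus Normoxic, 2, 1, 2 and 2 between Gel and Normoxic, and 0 each between Gel and PBS. Over all genes the shares were 21.4%, 13.2% and 5.54% in these comparisons. The smallest p among them in PBS versus Normoxic belonged to Slc29a3, a nucleoside transporter, at 0.58 ± 0.156 (edgeR adjusted p = 0.0514). Panx2, a pannexin, was at -0.40 ± 0.134 and Adora2a, a Gs-coupled adenosine receptor, at 0.83 ± 0.277 (edgeR adjusted p = 0.110 and 0.112). Entpd1 and Enpp1, which break down ATP outside the cell, were at 0.79 ± 0.379 and 0.71 ± 0.291, and Entpd3, a related enzyme, at -0.49 ± 0.215 (edgeR adjusted p = 0.259, 0.188 and 0.218).

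**Figure D5:**
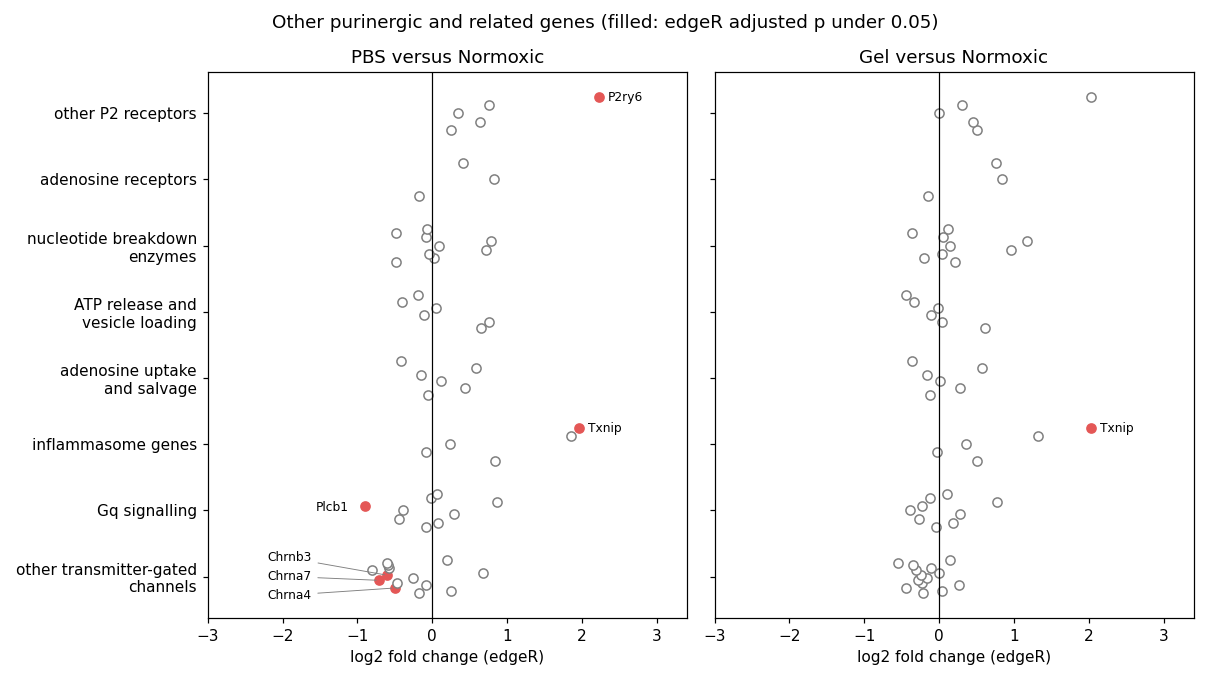
Log2 fold change (horizontal axis) of each gene of the 8 lists that passed the filter, in PBS and in Gel versus Normoxic, with called genes filled and named. P2ry6 and Txnip lie to the right and Plcb1 and 3 nicotinic subunits to the left in PBS versus Normoxic, and Txnip alone is called in Gel versus Normoxic.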

How the data were processed

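RNA from mouse retinas was sequenced in 9 libraries. Counts per gene were deposited by the authors as whole numbers, and the FPKM deposited by the authors are each gene's count over its library's total and over 1 length (relative spread at most 2.9e-10). The submitters' processing notes name Bowtie2, RSEM 1.3.1, DESeq2 1.4.5 and build GRCm39 with no roles. The sources used here do not say whether the counts are rounded estimates or used strand.

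Counts were tested in R 4.3.3 with the edgeR 4.0.16 quasi-likelihood test (1 fit to the 9 libraries, TMM scaling, no term but group), after filterByExpr (minimum count 10) kept 17362 of 26683 genes. Adjustment was by Benjamini-Hochberg over all kept genes, and SE is the log2 fold change over the root of F. CPM are counts over library totals times 1e+06. The script was tested on simulated data. Alternatives were other scalings, DESeq2 1.42.0, limma-voom (limma 3.58.1), other filters, the 2 compared groups alone, the replicate number as a block, a length trend removed, and each library left out, with GENCODE M21 lengths added after seeing the data. Genes named are the 7 receptors, the 8 genes most like P2rx2 and 3 most like each other receptor, and the list genes with the smallest p; some of these are not reported here. Members and lists were chosen with earlier results of these data known. Sequences come from RefSeq.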

Additional observations from a re-analysis of the deposited data

How the results depend on the processing

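Over the 7 receptors, 3 comparisons and 18 alternatives there were 378 values, of which 357 kept direction and side of the threshold. Under DESeq2, 1936 genes, 3 receptors and 10 list genes were called in PBS versus Normoxic, 64 genes and 1 list gene between Gel and PBS, and 854 genes and 7 list genes between Gel and Normoxic. In PBS versus Normoxic, P2rx7 was called beside P2rx2 with limma-voom, with no filter and with the length trend removed. The numbers of all genes called there under these settings are not reported here, so nothing is read from a count of receptors. With no filter 24 genes were called between Gel and PBS and 389 between Gel and Normoxic, with 2 list genes. With the length trend removed these were 3 and 436 genes, and with only the 2 groups in the fit 643 genes and 2 list genes in Gel versus Normoxic. Leaving out 1 library gave 455 to 1184, 0 to 12 and 47 to 735 genes called, list genes from 2 to 8 in PBS versus Normoxic and 1 to 3 in Gel versus Normoxic, and 0 to 1 receptor in Gel versus Normoxic, where P2rx2 ran from -1.98 to -1.31. P2rx4 in PBS versus Normoxic, near 0, changed sign with library totals (-0.0066) and with the length trend removed (-0.056), and ran from -0.11 to 0.15 without 1 library. In Gel versus PBS P2rx3 ran from -0.20 to 0.0553, P2rx6 from -0.47 to 0.0106 and P2ry1 from -0.0117 to 0.32. The causes were not tested. With GENCODE lengths 2 of 7 receptors kept their Normoxic rank.

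The labels do not say whether replicate numbers pair the samples. Same-numbered deviations from group means correlated at -0.071 to -0.0536 in PBS and Normoxic and -0.0989 to -0.0392 in Gel and Normoxic. In Gel and PBS they correlated at 0.326, -0.209 and 0.362 for replicates 1, 2 and 3. With 3 libraries per group these values cannot decide whether samples were paired. With the replicate number as a block 1050, 0 and 227 genes were called, 0 receptors and 3 list genes in Gel versus Normoxic, and P2rx2 there was -1.59. Depth limits P2rx7 most, with 11 counts in 1 Normoxic library.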
